A study of Mus musculus with 6 samples.

Results

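The genes described here are 33 genes of sterol and fatty acid synthesis with the regulators that sense sterols, listed by name. The list uses no measured value of its genes, though it was drawn up with earlier results of these data known. Of these, 30 were measured, among 22180 genes measured in all. A gene was measured where a probe set carried its symbol alone, and of several such probe sets that with the highest mean was used. Acat2, Idi1 and Scd2 had no probe set of that kind, and their levels were not analysed here. The measured genes were 16 of sterol synthesis (5 of the mevalonate pathway and 11 from squalene to cholesterol), 8 of fatty acid synthesis, 5 regulators and the sterol carrier Stard4.

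The cells were Raw 264.7, a mouse monocyte and macrophage line, grown in DMEM with 10% FBS, starved, and then kept in DMEM with 2% FBS. In one group the medium held 50 ng/ml IL-33, an alarmin of the IL-1 cytokine family (3 arrays), and the other group, labelled PBS, served as control (3 arrays). Both groups had been through the same starvation, and the labels give no treatment time and no word on separate cultures, so the spread behind each p-value is that of these samples and may be technical. Titles define the groups. In the descriptions, array names carry IL for the arrays titled PBS and P for those titled IL-33, and every sign below would turn if those names were right.

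Animal cells make cholesterol from acetyl-CoA through mevalonate and squalene, and make fatty acids from the same precursor through malonyl-CoA. Both routes are driven by SREBP transcription factors, which are carried by Scap from the endoplasmic reticulum to the Golgi and activated there when sterols are low, whereas Insig proteins hold them back when sterols are high. Srebf2 encodes the form that acts mainly on sterol genes, and Srebf1 encodes forms that also act on fatty acid genes. In macrophages, sterol synthesis and its intermediates are known to change with interferon and Toll-like receptor signalling.

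No gene of either route passed the test. With limma and Benjamini-Hochberg adjustment over all genes, at a threshold of 0.05, 0 of 30 genes passed, where 0.591% of all genes did. At an unadjusted p under 0.05 there were 8 of 30, with 7 higher and 1 lower in the IL-33 arrays. Of all genes 13.2% were below that p, with 6.42% higher and 6.74% lower. The largest difference was that of Pmvk at 1.18-fold, no gene reached 1.2-fold, and 4.91% of all genes did. The 95% intervals of the 30 genes, taken singly, ran from -0.33 to 0.37 on the log2 scale, so that the upper end for any of them was 1.29-fold. In this fit the smallest difference that passed among all genes was 0.33 on that scale. Among the 11090 genes with a mean value at or above the median of all genes, which include all 30, 17.8% had an unadjusted p under 0.05 and 5.37% reached 1.2-fold.

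Whether 3 of the genes passed depended on the fit. With the fit limited to those 11090 brighter genes, Pmvk, Cyp51 and Fasn passed with adjusted p of 0.0253, 0.0490 and 0.0279 (limma), in a fit where 6.85% of those brighter genes passed. With a trended and robust prior variance Pmvk and Fasn passed with 0.0318 and 0.00353 (limma), where 4.51% of all genes did.

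**Figure D1:**
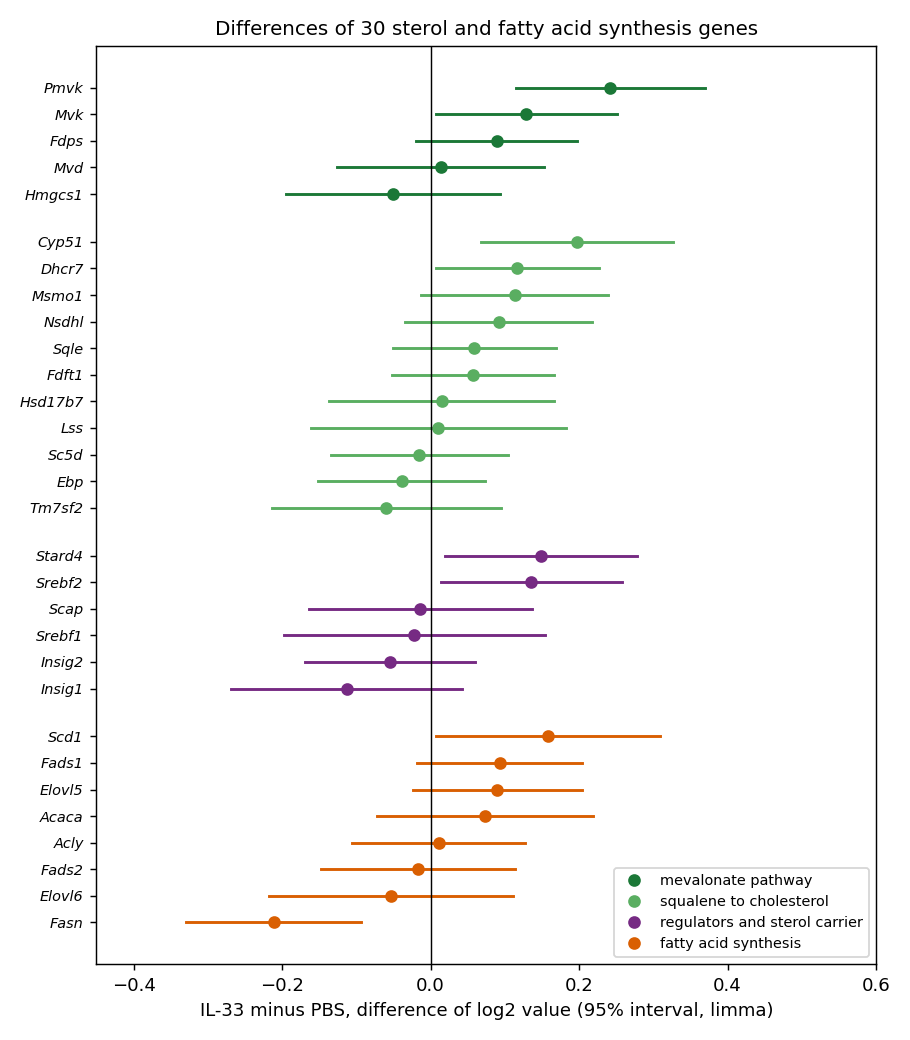
Difference of the mean log2 value, IL-33 arrays minus PBS arrays, with its 95% interval from limma for each of the 30 measured genes, in colours by role (x axis in log2 units). All points lie between -0.21 (Fasn) and 0.24 (Pmvk).

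Sequences just upstream of the genes were searched for elements through which SREBP factors are known to act. SREBP binds sterol regulatory elements and works with NF-Y, a factor that binds the CCAAT box. The RefSeq promoter table (GRCm38.p6) held 26 of the 33 genes, and the 250 bases before each listed start were searched on both strands for TCACNCCAC, a form of the sterol regulatory element, and for CCAAT. The motifs can share a single base, and where a gene has several starts a match in any window counted. TCACNCCAC was found for 1 gene of 26, Hmgcs1, against 1.22% of all genes with a window. CCAAT was found for 20 of 26 genes, namely 14 of 15 sterol synthesis genes, 4 of 5 regulators and 2 of 6 fatty acid genes, against 37.5% of all genes. The 15 sterol synthesis genes include Acat2, without a CCAAT match, and Idi1, with 2, whose levels were not measured. A match is only a stretch of letters, and its absence from this window says nothing of the factor.

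The Hmgcs1 window is shown as the one with a TCACNCCAC match. Pmvk, Fasn and Cyp51 are shown as the genes with the 3 largest differences, and were chosen after their values were seen. For Pmvk the table lists 2 starts, and the window is that with a CCAAT match. Capitals mark matches to TCACNCCAC and to CCAAT or its reverse complement ATTGG.
Hmgcs1, chr13:119690101-119690350, plus strand: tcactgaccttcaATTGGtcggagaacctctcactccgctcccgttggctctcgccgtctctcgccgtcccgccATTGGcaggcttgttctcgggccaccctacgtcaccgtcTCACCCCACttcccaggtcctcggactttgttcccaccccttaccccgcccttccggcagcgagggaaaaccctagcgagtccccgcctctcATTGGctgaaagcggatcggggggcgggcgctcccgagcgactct
Pmvk, chr3:89454291-89454540, plus strand: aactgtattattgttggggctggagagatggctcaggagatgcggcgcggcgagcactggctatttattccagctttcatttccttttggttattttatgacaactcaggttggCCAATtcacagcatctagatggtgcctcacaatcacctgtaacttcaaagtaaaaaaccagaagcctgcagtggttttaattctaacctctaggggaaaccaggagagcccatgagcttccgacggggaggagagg
Cyp51, chr5:4104698-4104947, minus strand: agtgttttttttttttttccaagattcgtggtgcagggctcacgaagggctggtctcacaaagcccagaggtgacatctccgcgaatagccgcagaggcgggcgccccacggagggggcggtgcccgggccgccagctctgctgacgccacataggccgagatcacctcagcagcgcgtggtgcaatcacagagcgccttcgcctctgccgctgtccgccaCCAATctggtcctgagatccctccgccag
Fasn, chr11:120824548-120824797, minus strand: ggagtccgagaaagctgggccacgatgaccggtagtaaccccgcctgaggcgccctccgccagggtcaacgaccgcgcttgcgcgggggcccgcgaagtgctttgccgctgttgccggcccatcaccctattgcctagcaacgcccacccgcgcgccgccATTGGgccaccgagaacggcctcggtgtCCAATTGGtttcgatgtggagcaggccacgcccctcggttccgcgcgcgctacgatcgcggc
In the Hmgcs1 window the TCACNCCAC match began 137 bases before the start and lay between CCAAT matches that began 176 and 45 bases before it. In Cyp51 the single CCAAT match began 29 bases before the start. The Fasn window held 3, beginning 90, 62 and 59 bases before the start, the last 2 of them overlapping on opposite strands.

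In the mevalonate pathway 4 of 5 measured genes had a difference above 0, and none passed. Pmvk, phosphomevalonate kinase, had log2 values of 7.82, 7.74 and 7.85 in the PBS arrays and of 8.09, 8.01 and 8.05 in the IL-33 arrays. All 3 IL-33 arrays lay above all PBS arrays. The difference was 0.24 ± 0.05 (SE, n = 3 each; limma adjusted p = 0.120). Mvk, the kinase of the step before, had values of 8.25, 8.23 and 8.17 against 8.38, 8.35 and 8.31. Its groups did not overlap either, with a difference of 0.13 ± 0.05 (SE, n = 3 each; limma adjusted p = 0.354). Fdps, which makes farnesyl diphosphate, showed the same order with narrower spread, at 11.97, 11.96 and 11.98 against 12.05, 12.05 and 12.08, a difference of 0.089. Mvd, the decarboxylase that follows Pmvk, overlapped between groups with a difference of 0.014.

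Hmgcs1, the synthase that makes HMG-CoA and a gene that SREBP is well known to drive, had values of 9.57, 9.48 and 9.47 in the PBS arrays and 9.43, 9.40 and 9.54 in the IL-33 arrays. The groups overlapped and the difference was -0.051, with a 95% interval from -0.20 to 0.093. It is the gene whose window above holds the TCACNCCAC match, and a link between match and difference was not tested. Its sign was unlike that of the other mevalonate genes, but its interval spans 0. Among those others, Mvd turned to -0.030 without PBS replicate 2.

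Between squalene and cholesterol 8 of 11 genes had a difference above 0 and none passed. Cyp51, the lanosterol demethylase, had log2 values of 8.42, 8.33 and 8.45 in the PBS arrays against 8.58, 8.58 and 8.64 in the IL-33 arrays. The groups did not overlap, and the difference of 0.20 ± 0.05 (SE, n = 3 each) did not pass (limma adjusted p = 0.194). Dhcr7, the reductase of the last step of one branch, had values of 8.86, 8.85 and 8.83 against 8.98, 8.96 and 8.93. Its difference of 0.12 ± 0.05 (SE, n = 3 each) did not pass (limma adjusted p = 0.352), and the groups did not overlap.

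Msmo1, the methylsterol oxidase that acts after Cyp51, had a difference of 0.11, and Nsdhl, a sterol dehydrogenase of the same demethylation, one of 0.092. Squalene synthase Fdft1 and squalene epoxidase Sqle each had differences near 0.06, at 0.057 and 0.059. In Sqle the IL-33 arrays lay at 10.07 in each case, above PBS values of 9.99, 10.01 and 10.04. None of these 4 genes had overlapping groups, and their adjusted p lay between 0.426 and 0.674 (limma).

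The other 5 genes of this stretch overlapped between groups. Lanosterol synthase Lss and the ketoreductase Hsd17b7 had differences of 0.010 and 0.015. Below 0 were Tm7sf2, a sterol reductase, at -0.059, the isomerase Ebp at -0.039 and the desaturase Sc5d at -0.015. Tm7sf2 spread more among the IL-33 arrays, at 7.80, 7.70 and 7.59, than among the PBS arrays, at 7.74, 7.76 and 7.77. Its difference was -0.0062 without IL-33 replicate 3 and -0.11 without IL-33 replicate 1.

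**Figure D2:**
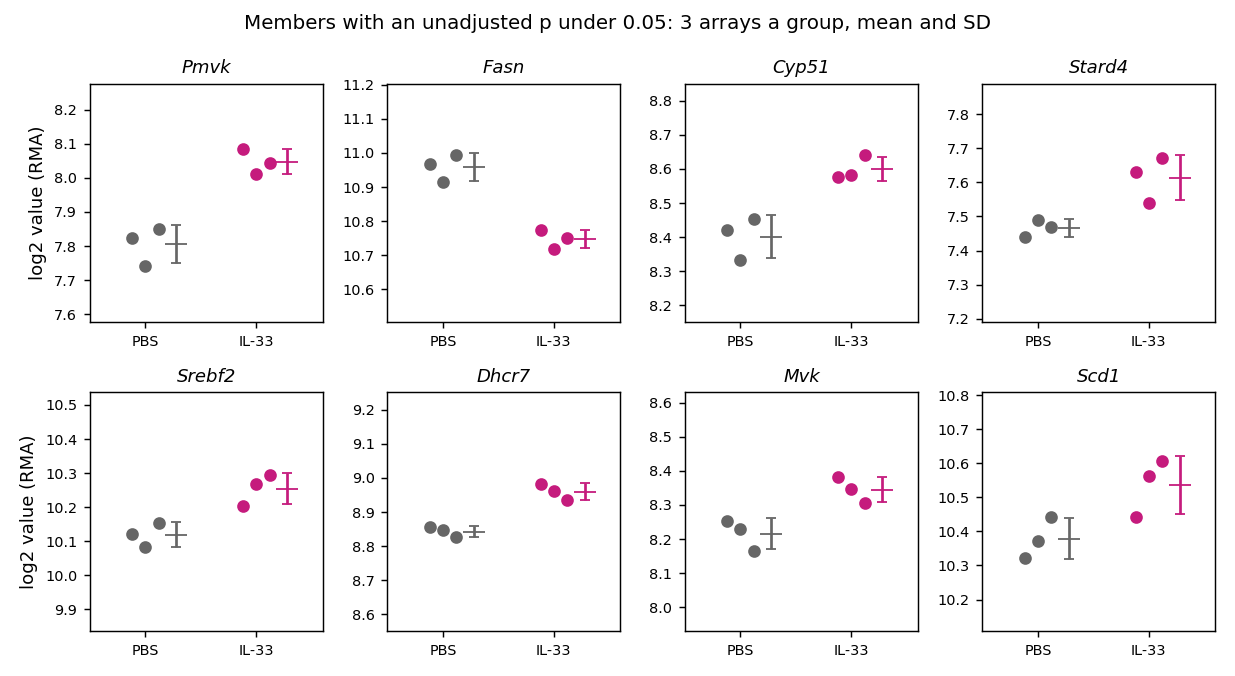
Log2 value of each array for the 8 genes with an unadjusted p under 0.05, PBS arrays in grey and IL-33 arrays in pink, with the mean and SD of each group beside the points; every panel spans the same log2 range. The groups do not overlap in 7 of the 8 panels, Scd1 being the exception. The panels were chosen by that p in these same arrays, so this count is no separate support for a difference. Fasn is the one gene that is lower in the IL-33 arrays.

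Among the regulators, Srebf2 was the one with groups apart above 0, and none passed. Srebf2 had log2 values of 10.12, 10.08 and 10.16 in the PBS arrays and 10.20, 10.27 and 10.29 in the IL-33 arrays. The difference was 0.14 ± 0.05 (SE, n = 3 each; limma adjusted p = 0.331). Srebf1 had values of 8.47, 8.33 and 8.55 against 8.50, 8.35 and 8.43, which overlapped, with a difference of -0.022 and a 95% interval from -0.20 to 0.15. The intervals of the SREBP genes overlap, and the difference between them was not tested. Scap, the carrier protein of the SREBPs, had a difference of -0.014. Its other probe set, which was dimmer, had one of -0.20 with groups that did not overlap.

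The Insig genes, which encode the retention proteins, both had differences below 0. Insig1, itself a target of SREBP, had values of 10.25, 10.22 and 10.34 in the PBS arrays and of 10.24, 10.17 and 10.06 in the IL-33 arrays. These overlapped, with a difference of -0.11 ± 0.07 (SE, n = 3 each; limma adjusted p = 0.523). Insig2 lay at 8.97, 9.01 and 8.94 against 8.93, 8.90 and 8.93, a difference of -0.055 with groups apart. Stard4, which carries sterols through the cytosol, had values of 7.44, 7.49 and 7.47 against 7.63, 7.54 and 7.67. All IL-33 arrays were higher, and the difference of 0.15 ± 0.05 (SE, n = 3 each) did not pass (limma adjusted p = 0.316).

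Fatty acid synthesis held differences of both signs, with 5 of 8 genes above 0 and none that passed. Fasn, the fatty acid synthase, had log2 values of 10.97, 10.91 and 10.99 in the PBS arrays and of 10.77, 10.72 and 10.75 in the IL-33 arrays. Every IL-33 array was lower than every PBS array. The difference was -0.21 ± 0.05 (SE, n = 3 each), a level 1.16-fold lower (limma adjusted p = 0.143). Of the genes of steps that feed Fasn, Acly and Acaca had overlapping groups. Acss2, which also supplies acetyl-CoA, belongs to the list of other fatty acid genes below. Its groups did not overlap, with a difference of 0.25 that did not pass (limma adjusted p = 0.167). Acly, which makes cytosolic acetyl-CoA from citrate, had a difference of 0.011 with a 95% interval from -0.11 to 0.13. Acaca, the carboxylase that makes malonyl-CoA, had one of 0.074 with an interval from -0.072 to 0.22.

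Among the enzymes that alter the fatty acid chain, Scd1, a desaturase that makes monounsaturated fatty acids, had values of 10.32, 10.37 and 10.44 against 10.44, 10.56 and 10.61. The lowest IL-33 array lay level with the highest PBS array, and the difference of 0.16 ± 0.06 (SE, n = 3 each) did not pass (limma adjusted p = 0.358). Elovl5 and Fads1, an elongase and a desaturase of polyunsaturated fatty acids, had differences of 0.090 and 0.093 with groups apart. Fads2, the desaturase of the first step of that route, had one of -0.017, and the elongase Elovl6, which acts on the products of Fasn, one of -0.053. Both overlapped between groups.

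Set against each other, the routes had similar medians. The median log2 difference was 0.058 over the 16 sterol synthesis genes, with 12 above 0, and 0.042 over the 8 fatty acid genes, with 5 above 0. The median of the 6 regulators and carrier was -0.018. Over all genes the median was -0.0051 with 47.9% above 0, and over the brighter genes it was 0.0053 with 52.2% above 0. The sterol median exceeded the fatty acid median by 0.016. Without IL-33 replicate 3 the fatty acid median was 0.023, and the excess was then 0.041, while it was -0.00090 without IL-33 replicate 1. No p is given for these medians.

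The same medians were followed array by array. Each gene was set against its own mean over the 6 arrays, and the median deviation was taken in each array. For sterol synthesis it was -0.030, -0.032 and -0.041 in the PBS arrays and 0.039, 0.029 and 0.031 in the IL-33 arrays, so the groups lay apart. For fatty acid synthesis it was -0.041, -0.016 and -0.0030 against -0.0053, 0.011 and 0.066, and the groups overlapped. The brighter genes stayed between -0.012 and 0.016 in all arrays. The sterol value minus the fatty acid value was 0.010, -0.016 and -0.038 in the PBS arrays and 0.045, 0.018 and -0.035 in the IL-33 arrays, which overlap.

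**Figure D3:**
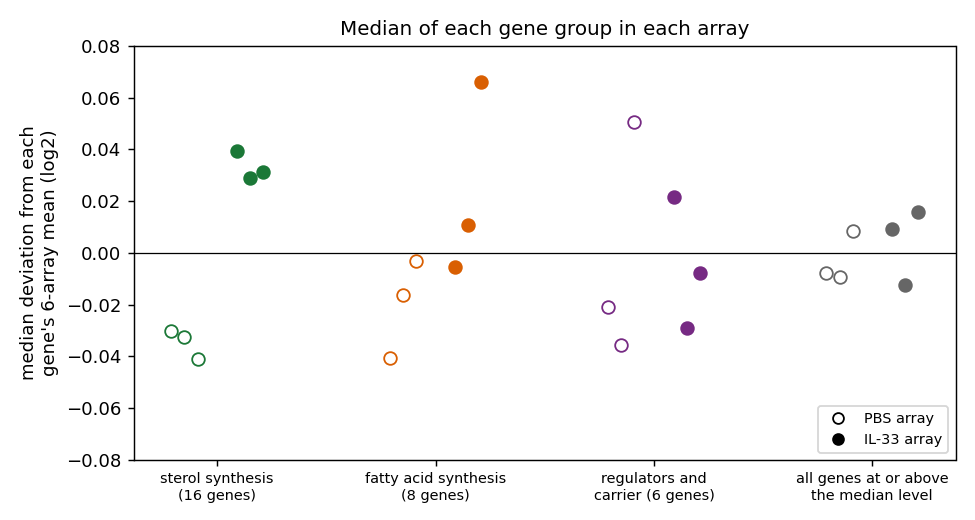
Median deviation from each gene's 6-array mean (y axis, log2) in every array, for sterol synthesis, fatty acid synthesis, regulators and carrier, and all genes at or above the median level; open circles are PBS arrays and filled circles IL-33 arrays. The sterol points separate by group, at or below -0.030 for PBS and at or above 0.029 for IL-33, and those of the other groups overlap.

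Gene by gene, 9 of 16 sterol genes had IL-33 values above all PBS values and none had them below. Among the 8 fatty acid genes 2 lay above and 1 below. Over all 30 genes the groups did not overlap in 15, with 13 higher and 2 lower. That was so in 20.3% of all genes, with 10.3% higher and 10.1% lower, and in 29.9% of the brighter genes, with 16.7% higher and 13.2% lower. These counts include differences as small as that of Insig2 at -0.055, so they describe order and not size.

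**Figure D4:**
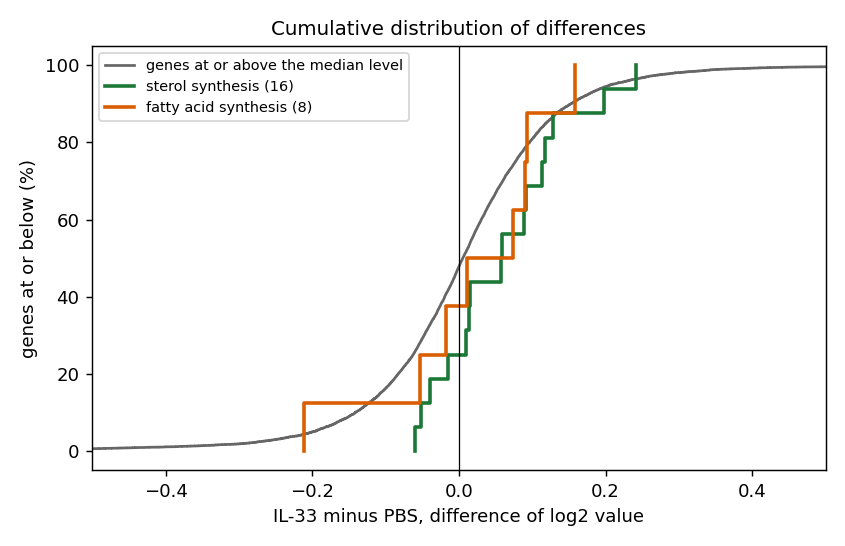
Cumulative share of genes (y axis, percent) at or below each difference of log2 value, IL-33 minus PBS (x axis), for sterol synthesis, fatty acid synthesis and all genes at or above the median level. The sterol curve runs to the right of the curve of all brighter genes over most of its length, with a median of 0.058 against 0.0053, and the fatty acid curve begins with Fasn at -0.21.

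Neighbouring genes of lipid metabolism were looked up in lists of their own. Of 15 other sterol genes measured none passed, and 2 had an unadjusted p under 0.05, against 13.2% of all genes. Their median difference of 0.057, with 10 of 15 above 0, was close to that of the synthesis genes. Their per-array medians lay apart by group as well, at -0.043, 0.0041 and -0.0065 in the PBS arrays and 0.0093, 0.027 and 0.040 in the IL-33 arrays. The 2 with the smallest p were Rnf145, a ubiquitin ligase of the endoplasmic reticulum linked to sterol sensing, and Npc2, a lysosomal cholesterol-binding protein. Rnf145 lay at 9.04, 9.06 and 9.07 in the PBS arrays and at 8.79, 8.65 and 8.71 in the IL-33 arrays. Its difference of -0.34 ± 0.05 (SE, n = 3 each) was larger than that of any of the 30 genes (limma adjusted p = 0.0568). Npc2 had a difference of 0.18 (limma adjusted p = 0.194).

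In the list of LXR, the sterol-activated nuclear receptor, and efflux, 1 gene of 8 passed, where 0.591% of all genes did. Pltp, a phospholipid transfer protein and LXR target, rose from 7.83, 7.82 and 7.85 to 8.17, 8.34 and 8.26. The difference was 0.42 ± 0.06 (SE, n = 3 each), a 1.34-fold rise (limma adjusted p = 0.0368). It passed in 6 of the 14 fits run in all, of which 1 left out an array (IL-33 replicate 1), and the adjusted p ran from 0.00143 to 0.183 over them (limma). Other targets of the same receptor, the efflux transporters Abca1 and Abcg1, had differences of -0.11 and -0.031 and did not pass. Abca1 lay below the median level of all genes. Lpcat3 and Apoe of the same list had differences of 0.099 and -0.050 and did not pass. Of the 8 genes, 4 had a difference above 0 and 4 below, and a part of the receptor was not tested.

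None of 29 other fatty acid genes passed, and 3 had an unadjusted p under 0.05, against 13.2% of all genes. Of the 29, 20 lay at or above the median level of all genes. Hacd4, a dehydratase of fatty acid elongation, had a difference of 0.53 and Fads3, a desaturase related to Fads1 and Fads2, one of -0.42, with adjusted p of 0.0506 and 0.0623 (limma). Hacd4 lay at 6.24, 6.44 and 6.31 against 6.83, 6.76 and 6.98, and Fads3 at 8.19, 8.23 and 8.20 against 7.93, 7.70 and 7.73, both without overlap. None of 12 glycerolipid genes passed, and 1 had an unadjusted p under 0.05, against the same 13.2% of all genes. Pcyt2 and Pcyt1a, which activate ethanolamine and choline for phospholipid synthesis, had differences of -0.18 and -0.10, with adjusted p of 0.223 and 0.422 (limma).

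Array medians lay between 5.31 and 5.36 (log2) over 41345 probe sets, and correlations across genes were 0.9972 to 0.9980 within groups and 0.9967 to 0.9971 between them. The median SE of a difference was 0.073 over all genes and 0.054 over the 30 genes. All 9 measured macrophage markers, among them Cd68, Csf1r and Lyz2, lay above the median level of all genes, at 9.53 to 12.92. Their summed log2 level was 104.54 to 104.68 in the PBS arrays and 104.36 to 104.51 in the IL-33 arrays, with Adgre1 at a difference of -0.29 (limma adjusted p = 0.114). The 13 markers of fibroblasts, hepatocytes, adipocytes, lymphocytes and epithelium lay between 3.68 and 6.42, 2 of them above the median level of 5.75. Their part in the differences above was not tested.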

How the data were processed

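Biotin-labelled cDNA from total RNA of 6 Raw 264.7 samples was measured on whole-transcript arrays, per the labels' protocols. The deposited values are log2 expression values made with RMA, per the submitters' processing notes; its version is unstated in the labels used here. RMA equalises array distributions, and differences near either end of the scale of such arrays can be compressed. The table holds no detection calls, and arrays give no count depth, so their number limits precision.

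Of 41345 probe sets, 23521 carried 1 symbol, 1814 several and 16010 were unnamed; 23328 of the 23521 matched a RefSeq gene table (GRCm38.p6) by Entrez ID and 0 symbols changed. No 2 arrays were identical. The values were fitted with limma 3.58.1 in R 4.3.3 (lmFit, eBayes, group as the single term, no filter), with Benjamini-Hochberg adjustment over 22180 genes and a threshold of 0.05. Intervals are single 95% intervals of that fit. Levels of different genes were set against the median level of all genes, and were not tested against each other. Figures used matplotlib 3.10.9.

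The genes, lists and tests were chosen with earlier results of these data known. By rule, all measured genes of the 33 could be named. Of each neighbouring list, up to 4 that passed could be named, or otherwise the 2 with the smallest p. Abca1, Abcg1, Lpcat3, Apoe, Acss2 and the printed windows other than that of Hmgcs1 were chosen after their values were seen. Alternatives were the mean of all probe sets, brighter genes alone, further quantile normalization, 75th percentile centring, a replicate block, a trended and robust prior variance, array weights, and leaving out each array. The shares over the brighter genes were added after seeing the data.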

Additional observations from a re-analysis of the deposited data

How the results depend on the processing

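The number of the 30 genes that passed was 0 under every alternative except the fit of brighter genes alone, with 3, and the trended and robust prior variance, with 2. Over all genes, 131 passed in the fit as reported, 760 among brighter genes, 1000 with the trended and robust prior, 21 with the replicate block, and 15 to 83 when 1 array was left out. Without PBS replicate 1 there were 19, without the second 36 and without the third 16; without IL-33 replicate 1 there were 83, without the second 15 and without the third 19. The cause was not tested. Same-numbered arrays had correlations of deviations of 0.0818, 0.0875 and 0.0225, and arrays with unlike numbers had values from -0.125 to 0.0587. These values do not settle whether the numbers are pairs, and the fit as reported did not pair them. With the replicate block 0 of the 30 genes passed.

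The sterol median ranged from 0.053 to 0.066 when an array was left out, the fatty acid median from 0.023 to 0.057 and the regulator median from -0.039 to 0.035, the latter above 0 when PBS replicate 3 (0.035) or IL-33 replicate 2 (0.0040) was left out. The sterol median minus the fatty acid median ran from -0.00090 to 0.041. The sign of 21 genes held in all alternatives. In the other 9 it turned when an array was left out. Their differences in the fit as reported lay between -0.053 (Elovl6) and 0.015 (Hsd17b7). Acly ran from -0.0092 to 0.024, Elovl6 from -0.100 to 0.0064 and Fads2 from -0.053 to 0.0051. Hsd17b7 ran from -0.027 to 0.069, Lss from -0.019 to 0.064 and Mvd from -0.030 to 0.054. Sc5d ran from -0.036 to 0.0036, Scap from -0.057 to 0.043 and Srebf1 from -0.083 to 0.027. A further 6 kept their sign but moved by over 1.5 times: Acaca ran from 0.032 to 0.108, Hmgcs1 from -0.094 to -0.019, Insig1 from -0.155 to -0.065, Insig2 from -0.073 to -0.036, Nsdhl from 0.060 to 0.115 and Tm7sf2 from -0.113 to -0.0062. The median difference of all genes was -0.0051 in the fit as reported, 0.0059 with further quantile normalization and -0.00023 with 75th percentile centring. Under those scalings the sterol median minus the fatty acid median was 0.021 and 0.016. The value under 75th percentile centring was fixed in advance, since centring shifts all genes of an array alike. Arrays give no depth, and their number limits the precision. In the fit as reported the smallest difference that passed among all genes was 0.33 in size; in the fits of brighter genes and with the trended and robust prior, smaller ones passed, such as that of Fasn at -0.21.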
